A study of Mus musculus with 30 samples.

Results

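The neutrophil genes S100A8, S100A9, LCN2, Ngp, Retnlg, CAMP, LTF, CSF3R and CXCR2 were followed in the extensor digitorum longus (EDL) muscle, a fast muscle of the lower leg, across all groups of the study. They are 9 of the 21073 genes of the deposited table and were found there by their symbols. They were picked because several of them were high on day 14 after immunization in earlier results of these data, so their day 14 levels are given as a description and were not tested. RNA-Seq was done on EDL muscle from 30 wild-type female SJL/J mice, with 5 mice in each of 6 groups. Ctrl mice received no immunization. OVA mice were immunized with ovalbumin in complete Freund's adjuvant (CFA), an oil emulsion with killed mycobacteria. EAE mice received the myelin peptide PLP139-151 in the same adjuvant, which induces experimental autoimmune encephalomyelitis, an autoimmune disease of the central nervous system used as a model of multiple sclerosis. OVA and EAE mice therefore share the adjuvant and differ in the antigen and its amount, and pertussis toxin was not given. Muscles were taken on day 14 or day 40, from different mice on the 2 days. The age of the mice is not given in the sources used here.

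Neutrophils are short-lived white blood cells that are made in the bone marrow, circulate in blood and enter tissue within hours of an inflammatory signal. Their granules are filled in sequence as the cells mature, first with primary granule enzymes such as myeloperoxidase and later with secondary granule proteins such as lactoferrin. S100A8 and S100A9 form calprotectin, a calcium-binding and metal-binding complex that makes up a large part of the neutrophil cytosol and acts on the receptors TLR4 and RAGE when it is released. LCN2 encodes lipocalin 2, which keeps iron from bacteria by binding their siderophores. Ngp encodes neutrophilic granule protein, CAMP the antimicrobial peptide cathelicidin and LTF the iron-binding protein lactoferrin, which are all secondary granule proteins. Retnlg encodes a resistin-like secreted protein. CSF3R is the receptor for G-CSF, the growth factor of neutrophils, and CXCR2 is the chemokine receptor through which they leave the marrow and follow CXCL1, CXCL2 and CXCL5. LCN2 and S100A8 are also known to be made by other cells under inflammatory stimulation.

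In the mm10 genome, S100A8 lies on the plus strand at chr3:90669071-90670034 and S100A9 on the minus strand close by at chr3:90692630-90695721. CAMP, Ngp and LTF all lie on chromosome 9, and LCN2 lies on chromosome 2. The promoter sequences below are the 250 bases directly before the start of the 4 genes with the largest differences or the clearest contrast on day 14, read on the strand of the gene from RefSeq (GRCm38.p6, the assembly of mm10). All 9 genes had a promoter there, and that of CSF3R (chr4:126024409-126024658) belongs to a start inside the annotated gene span. The S100A8 sequence is chr3:90668821-90669070, the S100A9 sequence chr3:90695722-90695971, the LCN2 sequence chr2:32387740-32387989 and the Ngp sequence chr9:110419558-110419807. Capitals mark matches to a C/EBP motif (TTGCNNAA) or a PU.1 motif (GAGGAAGT), where N is any base, on either strand. C/EBP factors and PU.1 are the transcription factors best known for driving granulocyte genes.
S100A8: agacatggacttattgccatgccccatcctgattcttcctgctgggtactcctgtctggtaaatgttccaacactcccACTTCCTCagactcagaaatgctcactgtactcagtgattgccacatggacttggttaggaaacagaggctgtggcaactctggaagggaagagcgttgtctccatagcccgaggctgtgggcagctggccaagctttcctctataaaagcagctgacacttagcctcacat
S100A9: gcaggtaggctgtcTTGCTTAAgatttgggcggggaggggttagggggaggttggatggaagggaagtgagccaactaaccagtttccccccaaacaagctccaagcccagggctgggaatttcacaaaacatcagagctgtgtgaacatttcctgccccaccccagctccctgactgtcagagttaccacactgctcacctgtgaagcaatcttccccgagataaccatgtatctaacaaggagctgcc
LCN2: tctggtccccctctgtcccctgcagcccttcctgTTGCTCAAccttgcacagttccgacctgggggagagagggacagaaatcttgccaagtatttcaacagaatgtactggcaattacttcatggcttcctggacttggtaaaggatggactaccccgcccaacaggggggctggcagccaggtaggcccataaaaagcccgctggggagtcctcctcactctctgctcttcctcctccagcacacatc
Ngp: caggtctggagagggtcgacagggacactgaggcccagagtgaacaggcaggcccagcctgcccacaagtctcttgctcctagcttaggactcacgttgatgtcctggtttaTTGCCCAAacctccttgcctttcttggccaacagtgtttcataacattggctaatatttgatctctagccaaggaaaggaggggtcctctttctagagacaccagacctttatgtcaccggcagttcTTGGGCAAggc
S100A8 and S100A9, neighbours on the chromosome, differed in these windows. The S100A8 window held a PU.1 match 172 bases before the start and no C/EBP match, and the S100A9 window a C/EBP match 236 bases before the start and no PU.1 match. LCN2 had a C/EBP match 216 bases before the start, and Ngp had C/EBP matches 138 and 11 bases before it. Of the other genes, Retnlg had a C/EBP match 246 bases and LTF one 75 bases before the start, while CAMP, CSF3R and CXCR2 had none. In all, 5 of the 9 genes held a C/EBP match, against 9.55% of the 27025 mouse promoters of the same length, and 1 of 9 held a PU.1 match, against 2.44%. A kappaB motif (GGNNTTTCC, in 4.84% of promoters) and a STAT motif (TTCNNNGAA, in 7.18%) had no match in the 9 windows. Matches to different motifs did not overlap in these windows. A match describes the letters alone and does not show that a factor binds there.

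Depth was read from the smallest steps of the values and came to 18.1M to 31.55M reads per mouse, with a median of 21.625M. EAE replicate 3 on day 14 was the deepest, and the other mice reached at most 24.8M. Each library is 1 mouse. All levels are RPKM, the reads of a gene divided by exon length and library depth, so levels can be compared between genes. At the median depth 1 read was worth 0.0952 RPKM for S100A8 and 0.0152 RPKM for CXCR2, which has a longer transcript. Muscle fibre genes (ACTA1, CKM and 4 others) summed to between 40308 and 60134 RPKM in every mouse. On day 14 the sum was lower in every EAE mouse (40308 to 45723 RPKM) than in every Ctrl mouse (48023 to 60134 RPKM), with OVA mice at 44290 to 49530 RPKM, and its part in the levels below was not tested. The table does not tell whether blood was flushed from the vessels before the muscles were taken, and a neutrophil in the vessels counts like a neutrophil in the tissue. In such bulk tissue, a higher number of neutrophils and more RNA per neutrophil cannot be told apart.

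S100A8 was the most strongly raised of the 9 genes in EAE mice. In Ctrl mice on day 14, S100A8 was at 1.85, 1.03, 0.807, 1.82 and 0.979 RPKM in replicates 1 to 5, which is 9 to 21 reads. In OVA mice it was at 84.4, 45.7, 22.55, 28.0 and 52.1 RPKM. In EAE mice it was at 334.8, 334.3, 130.1, 168.3 and 156.2 RPKM, or 1659 to 3233 reads. The 3 groups did not overlap: the lowest OVA mouse was above every Ctrl mouse, and the lowest EAE mouse was above every OVA mouse. The means were 1.30 ± 0.498, 46.5 ± 24.4 and 224.7 ± 101.2 RPKM (SD, n = 5). The mean of OVA mice was 35.8-fold that of Ctrl mice and the mean of EAE mice 173-fold. EAE mice were 4.83-fold above OVA mice, which had received the same adjuvant.

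S100A9, the partner of S100A8 in calprotectin, had the opposite order of the immunized groups. In Ctrl mice on day 14 it was at 4.02, 1.85, 2.5, 3.205 and 1.91 RPKM. In OVA mice it was at 109, 104, 29.2, 41.6 and 75.1 RPKM. In EAE mice it was at 45.6, 13.8, 57.2, 29.3 and 34.7 RPKM. Every immunized mouse was above every Ctrl mouse, while OVA and EAE mice overlapped, with OVA replicates 1 and 2 the highest and EAE replicate 2 the lowest. The means were 2.70 ± 0.920, 71.9 ± 36.0 and 36.1 ± 16.4 RPKM (SD, n = 5), so that S100A9 was 26.7-fold higher in OVA and 13.4-fold higher in EAE than in Ctrl mice. The EAE mean was 0.503 of the OVA mean.

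The ratio of the calprotectin genes therefore set EAE mice on day 14 apart from all other mice. S100A8 divided by S100A9 was 7.335, 24.15, 2.27, 5.75 and 4.50 in the EAE mice. In OVA mice on day 14 it lay between 0.438 and 0.773, with a median of 0.694, and in Ctrl mice between 0.323 and 0.569. Over the 25 mice outside the EAE day 14 group the ratio reached 1.17 at most and had a median of 0.513, so S100A9 was as a rule the more abundant transcript. EAE replicate 2, with the highest ratio, combined the second highest S100A8 of the group with its lowest S100A9. EAE replicate 3 had the lowest S100A8 and the highest S100A9 of the group, and still a ratio above that of any mouse outside it. This ratio was compared because S100A8 had already been seen to be high, and so it has no test on day 14.

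**Figure D1:**
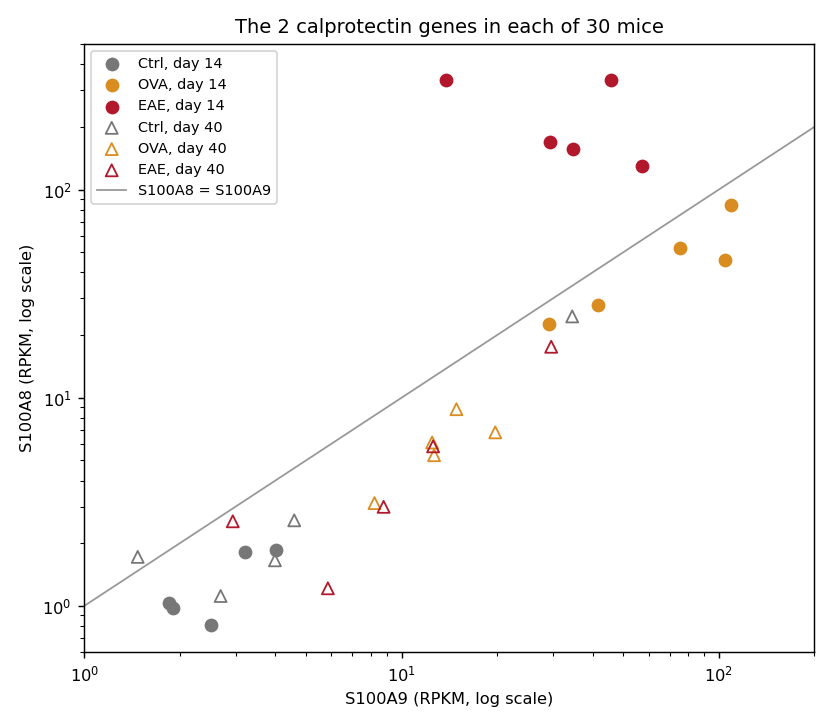
S100A8 (RPKM, vertical log axis) against S100A9 (RPKM, horizontal log axis), 1 point per mouse for 30 mice, with filled circles for day 14 and open triangles for day 40, and colours for Ctrl, OVA and EAE. The 5 EAE mice of day 14 lie above the line of equal RPKM, with ratios from 2.27 to 24.15, and the other 25 mice lie on or near it or below it, with ratios up to 1.17.

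LCN2 was the one gene besides S100A8 whose mean was higher in EAE than in OVA mice on day 14. It was at 1.40, 1.37, 1.59, 0.314 and 0.3215 RPKM in Ctrl mice. It was at 9.88, 13.7, 5.42, 6.27 and 11.6 RPKM in OVA mice and at 11.6, 9.56, 13.4, 9.34 and 17.9 RPKM in EAE mice. Both immunized groups lay wholly above Ctrl mice and overlapped with each other. The means were 0.9995 ± 0.628, 9.38 ± 3.52 and 12.4 ± 3.52 RPKM (SD, n = 5), a 9.39-fold difference for OVA and a 12.4-fold difference for EAE mice. EAE mice were 1.32-fold above OVA mice.

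The secondary granule genes Ngp, CAMP and LTF were near the detection limit in unimmunized muscle and clearly present after immunization. Ngp was at 0.0368, 0, 0.156, 0.2695 and 0.0945 RPKM in Ctrl mice on day 14. It was at 6.54, 10.65, 4.61, 3.925 and 6.82 RPKM in OVA mice and at 3.75, 2.37, 8.04, 2.82 and 2.04 RPKM in EAE mice. Each immunized mouse was above each Ctrl mouse, and EAE replicate 3 stood above the rest of its group. The Ngp mean was 58.5-fold higher in OVA than in Ctrl mice and 34.2-fold higher in EAE mice, folds that rest on 0 to 7 reads in Ctrl mice. CAMP had no read in 3 of 5 Ctrl mice and 0.356 RPKM at most in the others. It was at 4.02, 2.57, 1.04, 1.86 and 3.495 RPKM in OVA mice and at 1.36, 0.668, 2.36, 1.27 and 0.455 RPKM in EAE mice, again without overlap with Ctrl mice. LTF was at 0 to 0.0978 RPKM in Ctrl mice, at 0.966 to 2.99 RPKM in OVA mice and at 0.438 to 2.59 RPKM in EAE mice. The LTF mean was 34.4-fold higher in OVA and 22.2-fold higher in EAE than in Ctrl mice. EAE means of Ngp, CAMP and LTF were 0.584, 0.471 and 0.646 of the OVA means, and OVA and EAE mice overlapped for each gene.

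Retnlg and the receptors CSF3R and CXCR2 differed less from their levels in Ctrl mice than Ngp, CAMP and LTF did. Retnlg was at 2.805, 0.815, 1.56, 1.32 and 0.361 RPKM in Ctrl mice on day 14. It was at 19.25, 10.3, 3.42, 6.88 and 10.25 RPKM in OVA mice and at 4.84, 1.48, 6.72, 4.92 and 4.93 RPKM in EAE mice. OVA mice did not overlap with Ctrl mice, whereas in EAE mice replicate 2 fell among the Ctrl values and the other 4 were above them. CSF3R was at 0.3795 to 0.795 RPKM in Ctrl mice and at 0.989 to 2.67 RPKM in OVA mice. In EAE mice CSF3R was at 0.740, 0.643, 2.40, 1.51 and 1.10 RPKM, with 3 of 5 mice above all Ctrl mice. CXCR2 was at 0 to 0.224 RPKM in Ctrl, 0.598 to 2.04 RPKM in OVA and 0.280 to 1.25 RPKM in EAE mice, so that both immunized groups lay above the Ctrl mice. The folds of the means over Ctrl mice were 7.30 in OVA and 3.33 in EAE mice for Retnlg, 3.35 and 2.56 for CSF3R, and 10.4 and 6.29 for CXCR2.

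**Figure D2:**
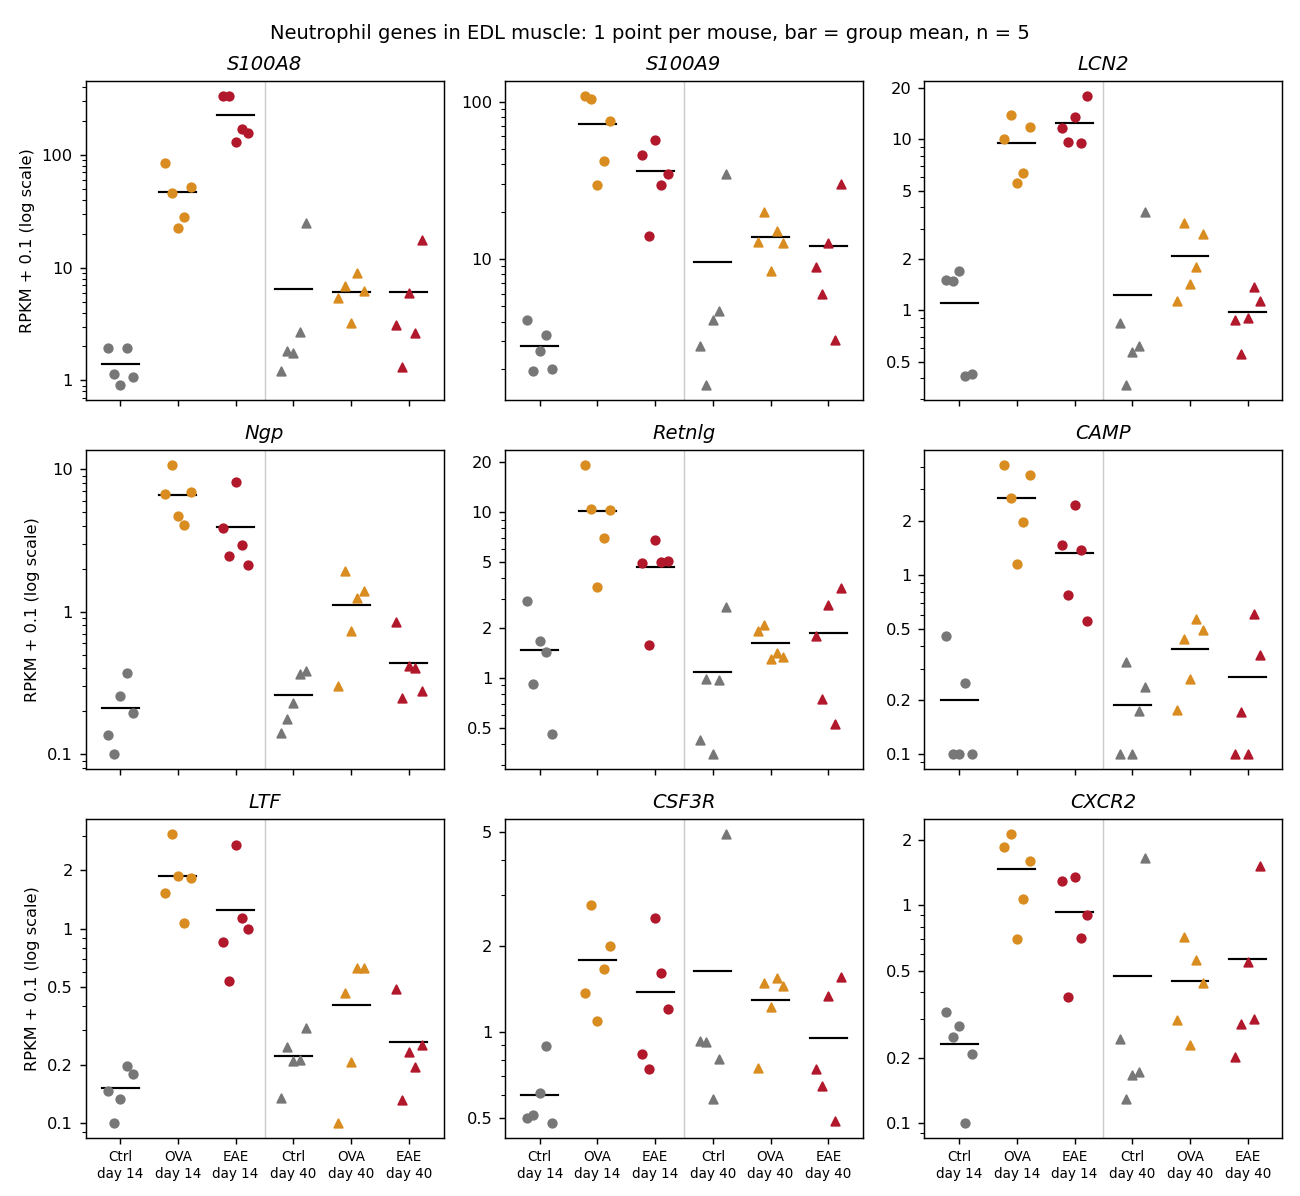
RPKM + 0.1 on a log axis for each of the 9 genes in its own panel, 1 point per mouse in the groups Ctrl, OVA and EAE on day 14 (circles) and day 40 (triangles), with a bar at the group mean (n = 5). Day 14 OVA mice lie above day 14 Ctrl mice in all 9 panels, S100A8 is highest in EAE mice of day 14 (130.1 to 334.8 RPKM), and on day 40 Ctrl replicate 5, the rightmost point of its group, stands above the other 4 Ctrl mice in 8 panels.

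Across the 9 genes, OVA mice were above Ctrl mice with no overlap in 9 of 9. In that comparison limma called 0.0944% of the 8471 tested genes higher and 0.0472% lower (adjusted p below 0.05 and fold above 1.5). Log2 differences were taken on log2(RPKM + 0.1), which understates the change of low genes. The median log2 difference of the 9 genes was 3.58, against -0.0039 for all tested genes. EAE mice were above Ctrl mice with no overlap in 7 of 9, where limma called 14.6% of 8771 tested genes higher and 11.8% lower, and the median log2 difference was 2.86 against 0.114. Between EAE and OVA mice, 2 of 9 means were higher and 7 lower in EAE, and S100A8 alone did not overlap. There 11.0% of 8674 tested genes were called higher and 9.28% lower, and the median log2 difference was -0.72 against 0.113. These shares of called genes stand as background, since the 9 genes were chosen on the day 14 values. They were taken over all tested genes, including any of the 9 that were tested. In OVA against Ctrl mice only 8 genes were called higher, so that share may hold several of the 9 genes. The shares count calls by limma, which is a different measure from groups that do not overlap. The share of all genes without overlap between these groups is not given here, so the counts without overlap describe the 9 genes alone. Only 5 of the 9 genes passed the filter of a group mean above 3 RPKM on day 14 (S100A8, S100A9, LCN2, Ngp and Retnlg), and each passed through an immunized group. The medians of the 9 genes include those under the filter, while the tested genes are above it. With no filter the medians over all genes with a read were -0.0015 (OVA against Ctrl), 0 (EAE against Ctrl) and 0 (EAE against OVA).

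**Figure D3:**
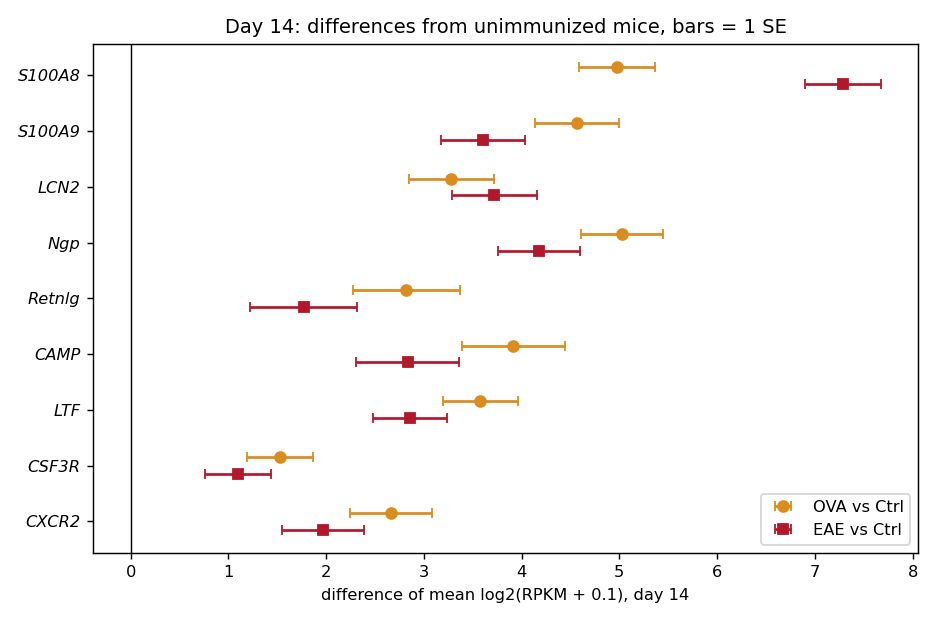
Difference of the mean log2(RPKM + 0.1) from Ctrl mice on day 14 for each of the 9 genes, with circles for OVA and squares for EAE mice and bars of 1 SE from limma (n = 5 per group). S100A8 lies at 4.98 in OVA and 7.29 in EAE mice and LCN2 at 3.28 and 3.72, while the 7 other genes have the EAE square to the left of the OVA circle.

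Levels relative to Ngp show how the make-up of the 9 transcripts differed between the immunized groups on day 14. S100A8 was at 7.13 times Ngp in the median OVA mouse (4.29 to 12.9) and at 76.7 times Ngp in the median EAE mouse (16.2 to 141). LCN2 was at 1.51 times Ngp in the median OVA mouse and at 3.31 times in the median EAE mouse, with overlapping ranges. For the other genes the medians lay closer together: 10.6 and 10.4 for S100A9, 1.503 and 1.289 for Retnlg, 0.219 and 0.216 for CXCR2. The medians of CAMP were 0.473 and 0.294, of LTF 0.251 and 0.322, and of CSF3R 0.250 and 0.299. S100A8 was thus the single transcript whose ratio to Ngp did not overlap between OVA and EAE mice.

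The rank of a mouse within its group was often shared between the genes. On day 14 OVA replicates 2 and 5 were among the top 3 of their group for all 9 genes, and OVA replicate 3 was the lowest for 7. EAE replicate 3 was the highest for 7 of 9 genes and the lowest for S100A8, and EAE replicate 2 was the lowest for 5. The correlation of the deviations from the group means (Pearson's r on log2(RPKM + 0.1), 30 mice, which share libraries and depth between genes) was highest for S100A9 with CXCR2 (0.849) and for Ngp with LTF (0.833). It was 0.782 for S100A8 with S100A9. It was lowest for Ngp with CXCR2 (0.217), S100A8 with LTF (0.220) and S100A8 with Ngp (0.235). Of the secondary granule genes, CAMP had low correlations with Ngp (0.330) and LTF (0.370). The correlation was 0.795 for S100A9 with Retnlg, while S100A8 had a higher correlation with S100A9 than with the granule genes Ngp and LTF. These values include replicate 5 of Ctrl and of EAE on day 40, which stood above the rest of their groups for several genes. Correlations between pairs of genes without these mice are not given here.

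The other neutrophil genes of the study's table were mostly too low to test. A list of 36 genes held 4 primary granule proteins, 10 other granule and secreted proteins, 16 surface and cytosolic genes and 6 subunits of the NADPH oxidase, the enzyme that makes superoxide. Primary granule enzymes stayed near 0: MPO, myeloperoxidase, had a mean of 0.0560 RPKM at most in any group, and the 4 genes together reached 0.444 to 0.856 RPKM in OVA mice on day 14. Ly6g, the mouse neutrophil surface marker, had means of 0.0211 RPKM in Ctrl, 0.649 in OVA and 0.263 in EAE mice on day 14 and had no read in any EAE mouse of day 40. In EAE against Ctrl mice on day 14, limma called 1 of the 7 genes above the filter higher and 5 lower. The gene that was higher was HP, haptoglobin, which liver and neutrophils make, with a log2 difference of 1.04 and an adjusted p of 0.0318. The HP call was lost in 7 of 10 models that left out 1 mouse (Ctrl replicates 2, 3 and 4 and EAE replicates 1, 3, 4 and 5), with all mice of both days in 1 model and with no filter on low values (limma adjusted p = 0.0706). HP was at 2.89 to 3.47 RPKM in Ctrl, 3.02 to 10.6 in OVA and 2.16 to 10.8 in EAE mice. Against OVA mice, limma called 0 of 8 genes higher (0 at an unadjusted p below 0.05) and 6 lower in EAE mice. In OVA against Ctrl mice limma called 0 of 8, with 1 at an unadjusted p below 0.05.

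The neutrophil-list genes that were lower in EAE mice are also known to be expressed by macrophages. The NADPH oxidase subunits CYBA, NCF4, NCF1 and RAC2 were lower in EAE than in Ctrl mice by log2 differences of -1.09, -1.01, -0.98 and -0.89, and these were 4 of the 4 subunits tested. The integrin chain ITGB2, which all leukocytes carry, was lower by -0.94, and its partner ITGAM was lower than in OVA mice by -0.79. With no filter on low values, limma called 5 of the 36 genes higher in EAE than in Ctrl mice, where 8.50% of all 18009 genes with a read were called higher. It called 8 lower, 6 of 6 NADPH oxidase subunits and 2 of 16 surface and cytosolic genes, where 10.4% of all genes were called lower. The higher ones were the collagenase MMP8 (1.97), the chitinase-like protein Chil3 (2.29), the stefin Stfa2l1 (2.42), Ly6g (1.375) and the receptor TREM1 (0.79). MMP8 had means of 0.0801 RPKM in Ctrl, 0.832 in OVA and 0.587 in EAE mice, and Chil3 0.289, 1.94 and 1.72 RPKM. In OVA against Ctrl mice 3 genes were called higher without the filter, against 0.0888% of all genes: MMP8 (2.39), Chil3 (2.41) and the receptor Trem3 (1.87). None was called higher in EAE than in OVA mice by limma, and 12 were called lower, against 6.53% of all genes called lower.

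Markers of several other cell types differed between EAE and Ctrl mice on day 14. Erythrocyte markers (haemoglobin genes, alas2 and SLC4A1, 6 of 9 listed genes in the table, none at 0) summed to 219 to 809 RPKM in Ctrl, 568.1 to 1973 in OVA and 32.5 to 230 in EAE mice. In EAE mice 5 of 5 tested erythrocyte genes were lower than in Ctrl mice, with a median log2 difference of -2.41, and 5 of 5 lower than in OVA mice, with -3.66. In OVA against Ctrl mice limma called 0 of 5 erythrocyte genes, 5 of them higher at an unadjusted p below 0.05, with a median log2 difference of 1.25. Within the EAE group the erythrocyte sums were 230, 42.9, 106, 141 and 32.5 RPKM in replicates 1 to 5. S100A8 was at 334.8, 334.3, 130.1, 168.3 and 156.2 RPKM in the same mice. Monocyte and macrophage markers (12 genes, none at 0) summed to 290 to 435 RPKM in Ctrl, 272 to 418 in OVA and 138 to 311 in EAE mice, with 6 of 10 tested genes lower in EAE than in Ctrl mice. MS4A7 (-1.27), CCR2 (-1.07), C1QA (-1.04) and ADGRE1 (-0.95) had the largest differences. Mast cell genes were also lower in EAE than in Ctrl mice, with CMA1 (-1.73), Mcpt4 (-1.72), TPSB2 (-1.5) and CPA3 (-1.18) called of 4 tested. In OVA against Ctrl mice limma called 0 of these 4, all 4 of them lower at an unadjusted p below 0.05, with a median log2 difference of -0.93. Platelet markers (6 genes, none at 0) summed to 25.1 to 45.7, 17.7 to 42.3 and 13.0 to 25.0 RPKM in Ctrl, OVA and EAE mice, and PF4 was lower in EAE than in Ctrl mice by -0.75. The PF4 call was lost without Ctrl replicate 1 or EAE replicate 2. No lymphocyte marker reached the filter. Of the 6 muscle fibre genes limma called 0 in each comparison on day 14, and 3 (EAE against Ctrl), 1 (EAE against OVA) and 0 (OVA against Ctrl) had an unadjusted p below 0.05. The part of blood content and of other leukocytes in the levels of the 9 genes was not tested.

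Of the transcription factors that drive granulocyte genes, CEBPB and CEBPD were higher and SPI1 was lower in EAE than in Ctrl mice on day 14. CEBPB was at 17.2 ± 2.60 RPKM in Ctrl, 19.7 ± 10.9 in OVA and 34.9 ± 12.3 in EAE mice (SD, n = 5), a log2 difference of 0.95 between EAE and Ctrl mice (limma adjusted p = 0.0166). The CEBPB difference between EAE and OVA mice was 0.89 (limma adjusted p = 0.0287), a call lost in 5 of 10 models that left out 1 mouse (OVA replicates 2, 3 and 4 and EAE replicates 1 and 2), with only these groups in the model and with no filter (limma adjusted p = 0.0697). CEBPD had a log2 difference of 0.86 (limma adjusted p = 0.0334), a call lost in 6 of 10 models that left out 1 mouse (Ctrl replicates 1 and 2, EAE replicates 1, 2, 3 and 5), with quantile normalization and with no filter (limma adjusted p = 0.0724). SPI1, which encodes PU.1, was lower by -0.92. CEBPE, the factor of secondary granule genes, had means of 0.545 RPKM in Ctrl, 0.229 in OVA and 0.0740 in EAE mice, under the filter. These 6 factors are also expressed outside granulocytes, and CEBPB and CEBPD by muscle.

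Among the known ligands, receptors and adhesion partners of the 9 gene products, SELP was higher in OVA than in Ctrl mice, TLR4 was higher and BSG lower in EAE than in Ctrl and OVA mice, and the chemokines were low. The CXCR2 ligand CXCL1 had means of 0.900 RPKM in Ctrl, 2.02 in OVA and 1.29 in EAE mice on day 14, CXCL2 of 0.201, 0.188 and 0.133 RPKM, and the G-CSF gene CSF3 of 0.0875 RPKM at most. PPBP, a platelet chemokine and CXCR2 ligand, was at 0.277, 1.32 and 0.358 RPKM. CXCL12, which holds neutrophils in the marrow, was the single gene of its list above the filter and was lower in EAE than in OVA mice by -0.68. SELP, P-selectin of activated endothelium on which neutrophils roll, was higher in OVA than in Ctrl mice by a log2 difference of 2.41 (limma adjusted p = 0.00135), with means of 0.739, 4.37 and 2.52 RPKM in Ctrl, OVA and EAE mice. In EAE against Ctrl mice SELP was under the filter, and without the filter it was called with a log2 difference of 1.655. SELE, E-selectin, was at 0.125, 0.952 and 0.933 RPKM, and ICAM2 was lower in EAE than in Ctrl mice by -0.86. TLR4, a receptor of calprotectin, was higher in EAE than in Ctrl mice by 1.59 (limma adjusted p = 0.000297) and than in OVA mice by 1.12 (limma adjusted p = 0.00476), at 1.27, 1.78 and 4.05 RPKM. In OVA against Ctrl mice TLR4 was under the filter, and without the filter its log2 difference was 0.48 (limma adjusted p = 0.623). BSG, basigin, which S100A9 binds, was lower in EAE than in Ctrl mice by -0.68 and than in OVA mice by -0.66, at 486, 479 and 302 RPKM. The BSG call was lost with quantile normalization in both comparisons, and without OVA replicate 1 in the second. The RAGE gene AGER was at 0.235, 0.174 and 0.118 RPKM.

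None of the other S100 genes above the filter was called higher after immunization. A list of 12 held 11 of them and S100PBP, which encodes a binding partner of S100P, and limma tested 8 of the 12 on day 14 and called 0 higher in each comparison (0 also at an unadjusted p below 0.05). S100A4 (-1.04), S100A11 (-0.99), S100A6 (-0.89) and S100A10 (-0.82) were lower in EAE than in Ctrl mice, and 3 of 8 were lower than in OVA mice. S100A4, for example, was at 72.2 ± 12.1 RPKM in Ctrl and 36.65 ± 13.65 RPKM in EAE mice (SD, n = 5).

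On day 40 the levels of the 9 genes had come closer to those of Ctrl mice. S100A8 was at 1.12, 1.72, 1.66, 2.58 and 24.6 RPKM in Ctrl mice. It was at 5.30, 6.82, 3.12, 8.81 and 6.095 RPKM in OVA mice and at 2.99, 1.215, 5.84, 2.55 and 17.6 RPKM in EAE mice. One Ctrl mouse, replicate 5, was thus the highest of all 15 mice, and the other 4 Ctrl mice lay below every OVA mouse. S100A9 was at 2.69, 1.47, 3.99, 4.59 and 34.5 RPKM in Ctrl mice. It was at 12.7, 19.7, 8.215, 14.9 and 12.5 RPKM in OVA mice and at 8.78, 5.86, 12.6, 2.94 and 29.6 RPKM in EAE mice. Replicate 5 was the highest mouse in the Ctrl and in the EAE group, and without it OVA mice were again above all Ctrl mice.

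These were the 2 genes of the 9 above the filter on day 40, and limma called neither in any comparison. In OVA against Ctrl mice the log2 difference was 0.94 (SE 0.72, limma adjusted p = 0.999) for S100A8 and 1.42 (SE 0.66, limma adjusted p = 0.999) for S100A9. The unadjusted p of S100A9 was 0.0478 by limma. In EAE against Ctrl mice it was 0.43 (SE 0.72, limma adjusted p = 0.711) for S100A8 and 0.88 (SE 0.66, limma adjusted p = 0.383) for S100A9. In EAE against OVA mice it was -0.51 (limma adjusted p = 0.721) for S100A8 and -0.54 (limma adjusted p = 0.678) for S100A9. At an unadjusted p below 0.05, limma had 1 of 2 genes in OVA against Ctrl mice and 0 of 2 in the other comparisons. Of all tested genes, 0% of 8706 were called in OVA against Ctrl, 0.460% of 8691 in EAE against Ctrl and 0.209% of 8598 in EAE against OVA mice, and 272, 2423 and 1500 had an unadjusted p below 0.05. The 95% interval of the S100A8 difference between EAE and Ctrl mice ran from -1.09 to 1.95 on the log2 scale, so differences of either sign within these bounds could not be told from none at this spread.

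Much of the spread on day 40 came from Ctrl replicate 5. Compared with the mean of the other 4 Ctrl mice it was 13.9-fold higher for S100A8, 10.8-fold for S100A9, 7.38-fold for LCN2, 6.81-fold for CSF3R and 19.98-fold for CXCR2. It was higher by 4.43-fold for Retnlg but by 2.21-fold for Ngp, 2.08-fold for LTF and 1.84-fold for CAMP. The smaller folds of Ngp, LTF and CAMP rest on 1 to 8, 2 to 14 and 0 to 4 reads in the Ctrl mice of day 40. Ctrl replicate 5 was the highest Ctrl mouse for 8 of the 9 genes. Its HP was 30.8 RPKM (1.70 to 2.54 in the other Ctrl mice), its interleukin 1 gene IL1B 5.795 RPKM (0.694 to 1.62) and its CXCL5 2.26 RPKM (0 to 0.235), while it had no read for Ly6g. Its erythrocyte markers summed to 110 RPKM, the lowest of the group, and its monocyte and macrophage markers to 467 RPKM, the highest. Without this mouse, the log2 difference between OVA and Ctrl mice was 1.69 (limma adjusted p = 0.998) for S100A8 and 2.12 (limma adjusted p = 0.998) for S100A9. Between EAE and Ctrl mice it was 1.18 (limma adjusted p = 0.202) and 1.58 (limma adjusted p = 0.107), with the high EAE replicate 5 kept. With EAE replicate 5 also left out and no filter, it was 0.66 (limma adjusted p = 0.456) and 1.15 (limma adjusted p = 0.254). Between EAE and OVA mice it was -1.04 (limma adjusted p = 0.346) and -0.97 (limma adjusted p = 0.392) in that model. All OVA mice were above the 4 Ctrl mice other than replicate 5 for 4 of the 9 genes, and all EAE mice for 0. The share of all genes that separate in this way is not given here.

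The other 7 genes were under the filter on day 40, and limma called 0 of them without it, with Ngp (OVA against Ctrl and EAE against OVA) and LCN2 (OVA against Ctrl) at an unadjusted p below 0.05. Ngp was at 0.0419, 0.0775, 0.129, 0.265 and 0.284 RPKM in Ctrl mice. It was at 0.199, 1.82, 0.632, 1.14 and 1.29 RPKM in OVA mice and at 0.747, 0.149, 0.316, 0.299 and 0.1785 RPKM in EAE mice. OVA replicate 1 lay within the range of the Ctrl mice, and the other 4 OVA mice were above it. With no filter on low values the log2 difference of Ngp was 1.96 between OVA and Ctrl mice (limma adjusted p = 0.929) and -1.24 between EAE and OVA mice (limma adjusted p = 0.279). LCN2 was at 0.741, 0.2635, 0.468, 0.515 and 3.67 RPKM in Ctrl, at 1.03, 3.13, 1.32, 1.69 and 2.69 RPKM in OVA and at 0.777, 0.457, 0.805, 1.27 and 1.03 RPKM in EAE mice. Its log2 difference between OVA and Ctrl mice was 1.202 (limma adjusted p = 0.996). Every OVA mouse was above the 4 Ctrl mice other than replicate 5 for LCN2. CAMP was at 0.469 and 0.508 RPKM at most in OVA and EAE mice, LTF at 0.530 and 0.391, and CXCR2 at 0.613 and 1.41. Retnlg was at 1.21 to 1.99 RPKM in OVA and 0.429 to 3.41 RPKM in EAE mice. CSF3R had a lower mean in OVA (1.19 RPKM) and EAE (0.854 RPKM) than in Ctrl mice (1.53 RPKM), where replicate 5 was at 4.83 RPKM, while its log2 difference was 0.12 for OVA and -0.41 for EAE mice.

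On the log2 scale 9 of 9 genes were higher in OVA and 8 of 9 higher in EAE than in Ctrl mice on day 40, and 8 of 9 were lower in EAE than in OVA mice, none without overlap. The median log2 differences were 0.95, 0.43 and -0.53, against -0.0019, -0.050 and -0.042 for all tested genes. The medians of the 9 genes include those under the filter, while the tested genes are above it. With no filter the medians over all genes with a read were -0.0035, -0.067 and -0.055. The 9 genes vary together between mice, and OVA and EAE mice are set against the same Ctrl mice, so the genes are not separate evidence. Over all the other gene lists limma called 0 genes on day 40 in each comparison. At an unadjusted p below 0.05 there were 13 of 51 tested list genes in EAE against Ctrl, 12 of 52 in EAE against OVA and 3 of 51 in OVA against Ctrl mice.

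**Figure D4:**
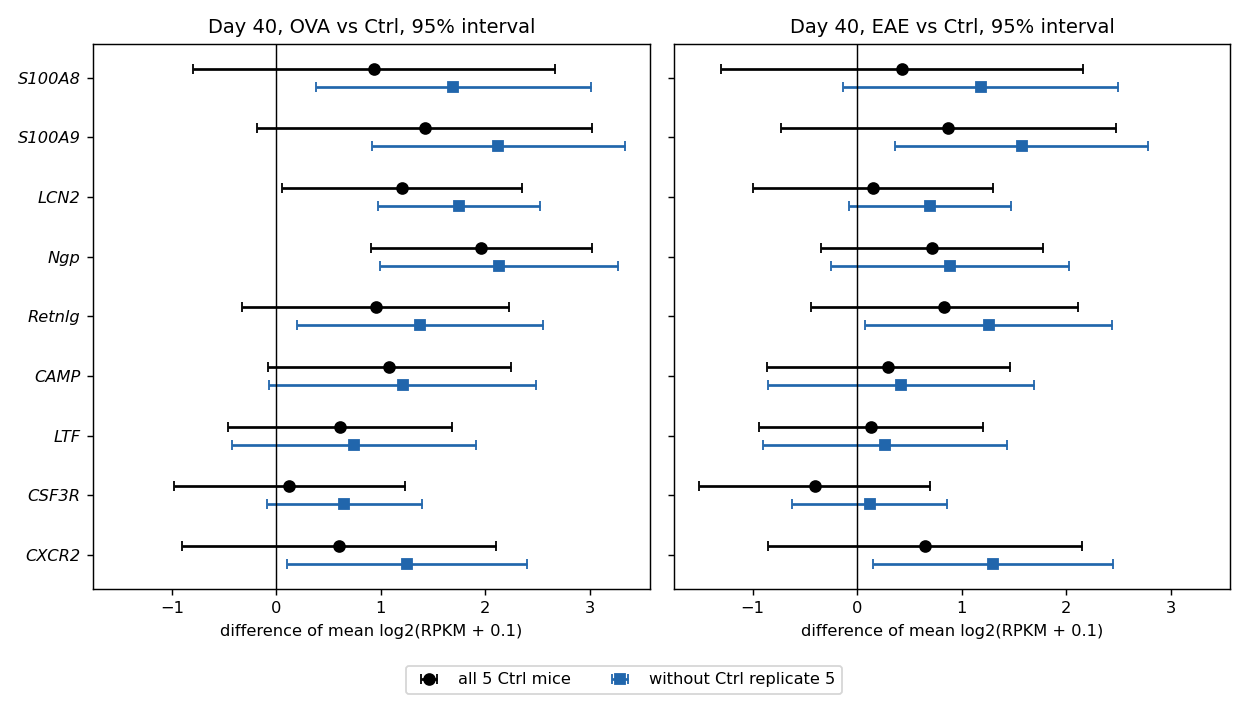
Difference of the mean log2(RPKM + 0.1) from Ctrl mice on day 40 for each of the 9 genes, OVA in the left and EAE in the right panel, with 95% intervals from limma with no filter on low values (n = 5 per group). Black circles include all 5 Ctrl mice and blue squares leave out Ctrl replicate 5, which moves S100A8 from 0.94 to 1.69 in OVA and from 0.43 to 1.18 in EAE mice. The high EAE replicate 5 is kept in both.

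The ratio of S100A8 to S100A9, which was high in EAE mice on day 14, did not stand out on day 40. It lay between 0.208 and 0.868 in EAE, 0.345 and 0.592 in OVA and 0.415 and 1.17 in Ctrl mice. A two-sided exact permutation test over the 252 splits of 5 against 5 mice, in which the smallest p is 0.00794, gave p = 0.373 for EAE against Ctrl mice (difference of the mean log2 ratio -0.45). The same exact permutation test gave p = 0.976 for EAE against OVA mice (0.02) and p = 0.167 for OVA against Ctrl mice (-0.47). The Benjamini-Hochberg adjusted values of the exact permutation test over these 3 comparisons were 0.560, 0.976 and 0.5.

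Set side by side, and from different mice, levels were higher on day 14 than on day 40 in the immunized groups. OVA mice of day 14 were above all OVA mice of day 40 for 7 of the 9 genes, with CSF3R and CXCR2 overlapping. EAE mice of day 14 were above those of day 40 for 4 genes, S100A8 (37.25-fold), LCN2 (14.2-fold), Ngp (11.3-fold) and LTF (7.13-fold). Ctrl mice of the 2 days overlapped for 9 of 9 genes. No test was made of these differences, since the genes were chosen on day 14. The share of all genes without overlap between the days is not given here, so these counts describe the 9 genes alone. In the order of the 6 group means, S100A8 in EAE mice of day 14 came first with no overlap with the next group, OVA of day 14, while S100A9 in OVA mice of day 14 came first and overlapped with EAE of day 14.

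Outside the 9 genes, the transcripts that followed them most closely from mouse to mouse were led by ifitm1 and APOBR. Likeness was the correlation (Pearson's r, 30 mice, the same libraries for all genes) of a gene's deviations from its group means with the mean deviation of those of the 9 genes with a mean above 1 RPKM over the 30 mice, among 10989 genes above that mean. The 10 highest were ifitm1 (0.837), APOBR (0.809), HP (0.795), CD300LF (0.754), AB124611 (0.752), MMP9 (0.742), Wfdc17 (0.740), SAA3 (0.733), IL1B (0.733) and ANXA7 (0.718). MMP9 is the gelatinase of neutrophil granules, SAA3 a serum amyloid A and APOBR a lipoprotein receptor of myeloid cells. Without the 2 mice farthest from the median, replicate 5 of Ctrl and of EAE on day 40, HP fell to 0.609, MMP9 to 0.568, ANXA7 to 0.574 and IL1B to 0.614, whereas ifitm1 (0.792), APOBR (0.801) and SAA3 (0.751) moved less. Of the 9 genes, S100A8 then fell from 0.828 to 0.664, CSF3R from 0.843 to 0.710 and LCN2 from 0.712 to 0.563. S100A9 and Retnlg fell less, and Ngp rose from 0.532 to 0.653. For S100A8 alone, over all 30 mice, the closest were BCL2L1 (0.727), PIR (0.724) and IL17RA (0.717). For S100A9 alone they were MMP9 (0.766), DOK1 (0.764) and APOBR (0.761).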

How the data were processed

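EDL muscle of 30 mice (6 groups of 5, 15 mice per day, grouped by the treatment and day of the labels) was measured by poly(A) RNA-Seq. The authors aligned paired-end reads to mm10 with Subread, counted them on RefSeq transcripts with featureCounts and deposited 1 table of 21073 genes, whose values are log2(RPKM + 1), with 0.0001 for a gene without a read. The deposited log2 scale is not named in the table and was read from the values: multiplied by exon length, the back-converted RPKM summed to 0.964 to 1.03 of the reads of each mouse, against 0.115 to 0.137 if the values were RPKM. Values were converted back to RPKM, and 27 symbols stored as dates were identified by Entrez number. Depth came from the value of 1 read, and 2 estimates of it differed by 0.526% at most.

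Groups were compared with limma 3.58.1 in R 4.3.3 (functions lmFit and eBayes, trended prior) on log2(RPKM + 0.1), the 15 mice of a day in 1 model, over genes with a mean above 3 RPKM in a compared group. A call needed an adjusted p (Benjamini-Hochberg) under 0.05 together with a fold change over 1.5. The authors tested read counts with edgeR, and no counts were analysed here. Ratios were compared with exact permutation tests written in Python 3.11.15, and scipy 1.17.1 gave their Benjamini-Hochberg adjusted values. The model was tested on simulated data. Promoters and gene positions came from RefSeq GRCm38.p6. The 9 genes, the gene lists and the alternatives were chosen with earlier results of these data known. Besides the 9 genes, the text names the called genes of each list (the 4 largest where more than 4 were called), known ligands and partners, and the 10 genes most like the 9. Other genes named beside them, such as those of Ctrl replicate 5 on day 40 and those closest to S100A8 or S100A9 alone, were chosen after their values were seen. Alternatives were other pseudocounts (1 and 0.01 RPKM), no filter, other scalings, other sets of mice and leaving out each mouse. No mouse was left out otherwise.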

Additional observations from a re-analysis of the deposited data

Results flagged for a closer look

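In 54 sets of 5 mice (9 genes in 6 groups), 4 held a mouse far from the others by Dixon's test at the 95% level. The test was taken on the log scale, and chance alone would give about 1 in 20. Levels below are in RPKM. Ctrl replicate 5 on day 40 was such a mouse for S100A8 (24.57 RPKM, others 1.12 to 2.58), CSF3R (4.83 RPKM, others 0.481 to 0.829) and CXCR2 (1.555 RPKM, others 0.0296 to 0.144). The same mouse was also the highest Ctrl mouse for S100A9, LCN2, Ngp, Retnlg and LTF, without passing that limit on the log scale. EAE replicate 2 on day 14 was low for Retnlg (1.481 RPKM, others 4.84 to 6.72), and it was the lowest of its group for 5 of the 9 genes.

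The LCN2 difference between EAE and OVA mice had another sign on each day. On the log2 scale it was 0.437 (SE 0.44) on day 14 and -1.047 (SE 0.53, 95% interval -2.20 to 0.10, limma adjusted p = 0.402 with no filter) on day 40, which differ by 1.484, and the groups overlapped on both days. Every EAE mouse was above the OVA mean on the log scale on day 14 and below it on day 40. The difference between the days was not tested, since LCN2 was chosen on day 14.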

How the results depend on the processing

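None of the 9 genes changed direction on day 14 in any of 18 alternative analyses of each comparison, and limma called 0 of them on day 40 in every comparison and alternative. Pseudocounts moved the low genes: the log2 difference of Ngp between EAE and Ctrl mice was 4.18 in the main analysis, 2.00 with 1 RPKM and 5.49 with 0.01 RPKM added. On day 40 the S100A8 difference between EAE and Ctrl mice turned to -0.1007 without EAE replicate 5, and ranged from -0.10 to 1.18 over all models that left out 1 mouse. Of the 36 other neutrophil genes, 1 was called higher in EAE than in Ctrl mice on day 14, 5 with no filter (HP, the 1, not among them), 0 with all mice of both days in 1 model and 0 to 1 without 1 mouse. In OVA against Ctrl mice, 0 were called with the filter and 3 without. In EAE against OVA mice the count of genes called higher was 0 throughout. Why these counts changed was not tested beyond the fact that the filter sets which genes enter. List genes called on day 14 kept their sign in all 18 alternatives each, other scalings included.

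The replicate numbers of the labels were not taken as pairs of mice in the main analysis. On day 14 the deviations of same-numbered mice correlated above 0.1 in 1 of 5 pairs of EAE and Ctrl mice (-0.23 to 0.51). It was 3 of 5 for EAE and OVA (0.026 to 0.70) and 3 of 5 for OVA and Ctrl mice (-0.73 to 0.61). On day 40 it was 0, 0 and 1 of 5, so no comparison had all pairs above 0.1. Differently numbered mice were not set beside these, so the check cannot decide whether the numbers pair the mice. With the replicate block, 0 of the 9 genes were called on day 40. Of the other neutrophil genes on day 14, 1 (EAE against Ctrl), 0 (EAE against OVA) and 0 (OVA against Ctrl) were called higher. These counts were the same without the block, where 5, 6 and 0 were called lower. The value of 1 read limits Ngp, CAMP, LTF and CXCR2 in unimmunized mice.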
